A study of Mus musculus with 6 samples.

Results

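SLC25 carriers are transport proteins, most of which move metabolites, nucleotides and cofactors across the inner membrane of mitochondria. The family was taken as every probe set annotated to exactly 1 gene whose symbol starts with Slc25a, with the brightest probe set standing for a gene. This gave 47 members of 24032 genes measured this way, namely 46 carrier genes and the retrotransposed pseudogene Slc25a5-ps, each with 1 probe set. A further probe set, for Slc25a37, also carries the symbol Gm21464 and is no member. RNA came from the steroid-producing line MA-10, derived from a mouse Leydig cell tumour, and was hybridised to Affymetrix arrays. Of the 6 arrays, 3 held cells given a control siRNA and 3 held cells given an siRNA targeting COUP-TFII, the orphan nuclear receptor encoded by Nr2f2. All cultures were transfected for 48 h, and the arrays of a group are labelled as biological replicates. The Nr2f2 signal fell only in part, to 64.4% of control, and the receptor protein was not measured in these arrays. The line is a tumour line, which limits it as a model of a Leydig cell in the testis. In such bulk samples fewer cells of a type and less RNA per cell cannot be told apart.

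SLC25 carriers share a fold made of a repeated module with paired membrane helices, and most exchange a substrate of the mitochondrial matrix for one of the cytosol. They export ATP and citrate, import ADP, phosphate, acylcarnitines and cofactors, and carry the malate-aspartate shuttle that brings reducing equivalents to the respiratory chain. In steroid-making cells the first step of synthesis takes place at the matrix side of the inner membrane. It needs NADPH, and carriers of citrate, malate and oxoglutarate link the matrix to the cytosol in the exchanges that supply it.

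Values are normalized log2 signals as deposited, and a difference is COUP-TFII siRNA minus control siRNA on that scale, with the standard error (SE) of limma and n = 3 per group. A gene is called changed at an adjusted p under 0.05 over all 26836 probe sets with a symbol. Signals of different probe sets depend on their probes and were not set against each other as amounts of RNA. Nr2f2, the targeted gene, read 8.98, 8.97 and 9.19 in control arrays and 8.25, 8.42 and 8.56 in COUP-TFII siRNA arrays. It fell to 64.4% of control without overlap (adjusted p = 0.00802). Array medians lay between 7.560 and 7.571 in control arrays and between 7.595 and 7.596 in COUP-TFII siRNA arrays. Of 7 measured Leydig markers, 6 fell, beside 5.57% of all genes at or above the table's median signal of 7.58. Nr5a1 (11.58 in control arrays) was not called, at a difference of -0.02 (adjusted p = 0.898). Steroidogenic genes such as Cyp11a1 (12.55 in control arrays) and Star (11.03) were bright. Of markers of other testis cells, 5 read above the table's median signal of 7.58 in control arrays, namely Sox9 (9.33, Sertoli cells), Ddx4 (8.41, germ cells), Cd68 (8.72, macrophages), Cdh5 (11.65, endothelium) and Acta2 (7.60, peritubular cells). The remaining ones, such as Adgre1 (5.10) and Ptprc (5.85) of macrophages, Amh (6.95) of Sertoli cells and Pecam1 (6.91) of endothelium, read below it, and 0 of the Sertoli, macrophage, endothelial and peritubular markers were called. By their labels all arrays held cultured MA-10 cells and not testis tissue, and the part of other cell types in any result was not tested.

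In COUP-TFII siRNA cells, 4 of the 47 members fell and 0 rose. The 4 were Slc25a34, Slc25a33, Slc25a30 and Slc25a15, at 67.0% to 86.9% of the control level. Over all probe sets with a symbol 4.51% were called, 2.92% as lower and 1.59% as higher. With 1 probe set per gene, 3.03% of all genes fell and 1.60% rose, against 8.51% and 0.0% of the members. The members are bright as a group, with 38 of 47 at or above the table's median signal, and all 4 calls are among those 38. Among all genes that bright 5.57% fell and 2.77% rose. The count of 4 falls thus stands beside a background that is itself higher for bright genes, and the absence of rises has no test here. After centring every array on its median 7 members fell and 0 rose. The share of probe sets with a symbol that fell also went up, from 2.92% to 4.41%, and the share of rises among all calls went from 35.2% to 20.6%.

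The median difference of the members was 0.001, beside 0.015 over all genes, and 23 of 47 members (48.9%) lay below 0, beside 43.7% of all genes. Among bright members 52.6% lay below 0, beside 52.5% of bright genes. The members' 5th percentile was -0.32 and that of all genes -0.21, whereas their 95th percentiles were 0.15 and 0.18. Of the 47 members, 27 differed by less than 0.1 in either direction. All 3 COUP-TFII siRNA arrays lay below all 3 control arrays for 14 members, or 29.8%, beside 12.5% of all genes. Among bright members the share was 31.6%, beside 21.1% of bright genes. The COUP-TFII siRNA arrays lay above for 6 members, or 12.8%, beside 13.2% of all genes. Among bright members that share was 15.8%, beside 17.1% of bright genes. At an unadjusted p under 0.05 there were 14 members, beside 19.7% of all genes. Of these, 11 were lower and 3 higher, where 10.1% and 9.59% of all genes passed in each direction. All 14 are among the 38 bright members, and of bright genes 29.4% passed, 17.4% as lower and 12% as higher.

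**Figure D1:**
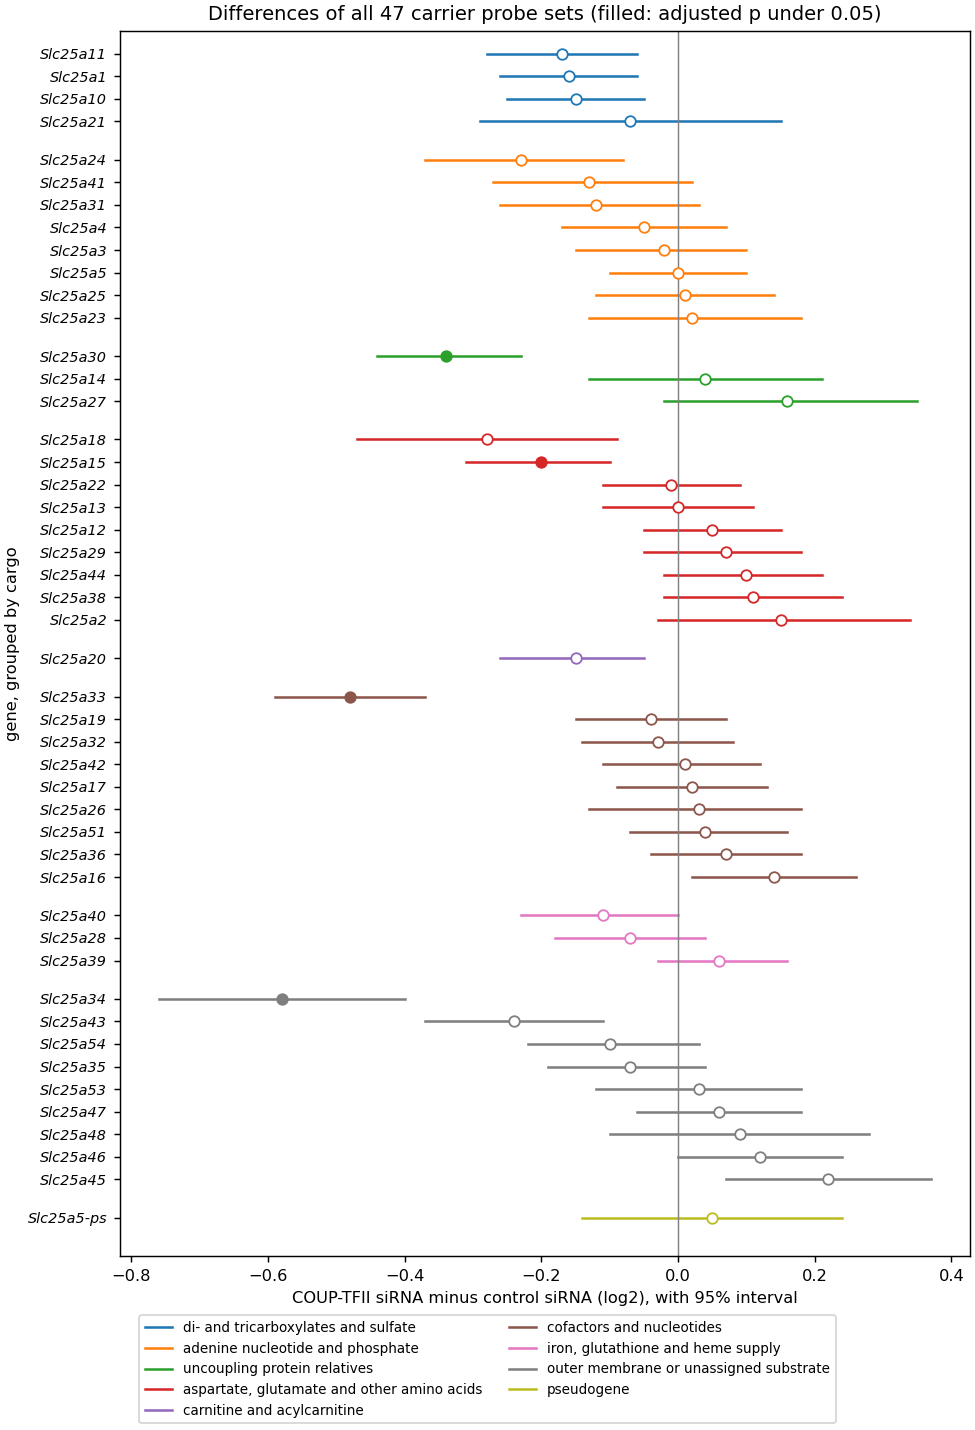
Difference between COUP-TFII siRNA and control siRNA (log2, horizontal axis) for each of the 47 members, grouped by cargo, where bars are 95% intervals of limma and filled circles are calls. Slc25a34, Slc25a33, Slc25a30 and Slc25a15 are filled and lie to the left of 0, and the differences span -0.58 to 0.22.

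The promoters of the 3 most strongly changed carriers are shown because these genes moved in the same direction. Sequences are RefSeq's, build GRCm38.p6, from 250 bases before to 50 after the annotated start, written 5′ to 3′ on the gene's strand. Capitals mark letters found by the motif search described after them.
Slc25a33 promoter, chr4:149774218-149774517, minus strand: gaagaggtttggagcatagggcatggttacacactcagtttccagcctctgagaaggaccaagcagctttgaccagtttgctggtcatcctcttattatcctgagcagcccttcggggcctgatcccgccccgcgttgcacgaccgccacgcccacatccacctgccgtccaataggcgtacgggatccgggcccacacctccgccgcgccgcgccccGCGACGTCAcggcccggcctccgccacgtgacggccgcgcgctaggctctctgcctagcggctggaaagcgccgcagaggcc
Slc25a34 promoter, chr4:141623785-141624084, minus strand: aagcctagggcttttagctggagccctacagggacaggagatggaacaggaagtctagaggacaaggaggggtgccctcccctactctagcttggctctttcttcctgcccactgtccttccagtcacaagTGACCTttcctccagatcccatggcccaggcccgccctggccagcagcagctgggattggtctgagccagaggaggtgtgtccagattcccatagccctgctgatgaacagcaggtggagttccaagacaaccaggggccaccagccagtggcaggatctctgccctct
Slc25a30 promoter, chr14:75786988-75787287, minus strand: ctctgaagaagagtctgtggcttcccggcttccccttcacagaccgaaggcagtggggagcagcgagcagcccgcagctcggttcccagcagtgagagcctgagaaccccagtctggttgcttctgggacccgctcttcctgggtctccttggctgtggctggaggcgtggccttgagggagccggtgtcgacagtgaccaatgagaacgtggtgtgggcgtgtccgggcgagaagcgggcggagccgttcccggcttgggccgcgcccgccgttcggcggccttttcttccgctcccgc

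Promoters were matched by symbol for 36 of the 47 members, and each was searched on both strands for 4 motifs. COUP-TFII binds direct repeats of the hexamer AGGTCA, and this hexamer was found in promoters of 4 of 36 members (11.1%), beside 18.1% of 27025 genes with a promoter in the table. Slc25a34 was the called member among the 4, with the letters on the reverse strand. The direct repeat of that hexamer with any 1 base N between the copies was found in 0 members and 0.0481% of genes. At so low a share a hit among 36 promoters would be rare, and only exact copies with this spacing were searched. The search therefore cannot tell whether members lack sites of the receptor. The core TGACNNNGC of the antioxidant response element, bound by NRF2, was found in 9 members (25%) beside 14% of genes, and Slc25a33 was the called one. The letters CCGGAAG of ETS factors such as GABP were found in 7 members (19.4%) beside 9.93% of genes. Promoters of members were richer in G and C (median 59.3%) than all promoters (52.7%), and the part of base composition in these shares was not tested. The Slc25a30 promoter held none of the 4 motifs in this window, nor did those of Slc25a15.

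Slc25a34, a carrier whose cargo is not settled, had the largest difference among the members. Its probe set, annotated to chromosome 4 band E1, read 9.50, 9.31 and 9.54 in control arrays and 8.99, 8.76 and 8.88 in COUP-TFII siRNA arrays. Every COUP-TFII siRNA array was below every control array. It fell by 0.58 (SE 0.08, 95% interval -0.76 to -0.40, adjusted p = 0.00741), to 67.0% of control. Under each of 13 alternatives it was also called, with adjusted p between 0.000904 and 0.0377.

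Slc25a33, a pyrimidine nucleotide carrier that brings UTP and CTP to the matrix for mitochondrial RNA and DNA synthesis, had the smallest p. It read 9.66, 9.68 and 9.66 in control arrays and 9.23, 9.15 and 9.18 in COUP-TFII siRNA arrays, and is annotated to the same band as Slc25a34. The spread within either group (SD 0.01 and 0.04) was small beside the gap between them. It fell by 0.48 (SE 0.05, 95% interval -0.59 to -0.37, adjusted p = 0.00181), to 71.7% of control. It was called under each of the 13 alternatives, with adjusted p between 0.000165 and 0.0213. In the GRCm38.p6 gene order its protein-coding neighbours are Tmem201 and Spsb1, which differed by 0.05 and -0.03. Those of Slc25a34 are Tmem82 and Plekhm2, which differed by -0.18 and 0.07, and none of these 4 neighbours was called.

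Slc25a30, a relative of the uncoupling proteins first described in kidney, is annotated to chromosome 14 band D2. It read 11.43, 11.50 and 11.43 in control arrays and 11.11, 11.10 and 11.13 in COUP-TFII siRNA arrays. No array of one group reached into the other, and the SD of the COUP-TFII siRNA arrays was 0.01. It fell by 0.34 (SE 0.05, 95% interval -0.44 to -0.23, adjusted p = 0.00748), to 79.2% of control, and was called under all 13 alternatives (adjusted p from 0.00032 to 0.0445). Its neighbours Cog3 and Tpt1 differed by 0.01 and 0.04.

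Slc25a15 encodes the ornithine carrier, which exchanges ornithine for citrulline and serves the urea cycle in liver. It read 9.52, 9.57 and 9.60 in control arrays and 9.36, 9.38 and 9.34 in COUP-TFII siRNA arrays. It fell by 0.20 (SE 0.05, 95% interval -0.31 to -0.10, adjusted p = 0.0447), to 86.9% of control. The groups were separate, but the call rests on all 6 arrays: without any single array adjusted p was 0.0666 to 0.144. A block for the replicate number gave 0.0872.

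In the authors' deposited table of 334 changed probe sets, Slc25a33 has a ratio of 0.708 (authors' p = 0.000319) and Slc25a34 one of 0.679 (authors' p = 0.00307). They are the 2 members on that deposited list of the authors. In the authors' table of all genes they have the same ratios, with smaller authors' p-values of 3.06e-06 and 4.58e-05. Why the p-values differ between the tables is not given, and neither is labelled as adjusted or unadjusted. Slc25a30 and Slc25a15 are not on the list. In the table of all genes their ratios are 0.795 and 0.881, with authors' p-values of 2.23e-06 and 2.61e-05.

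**Figure D2:**
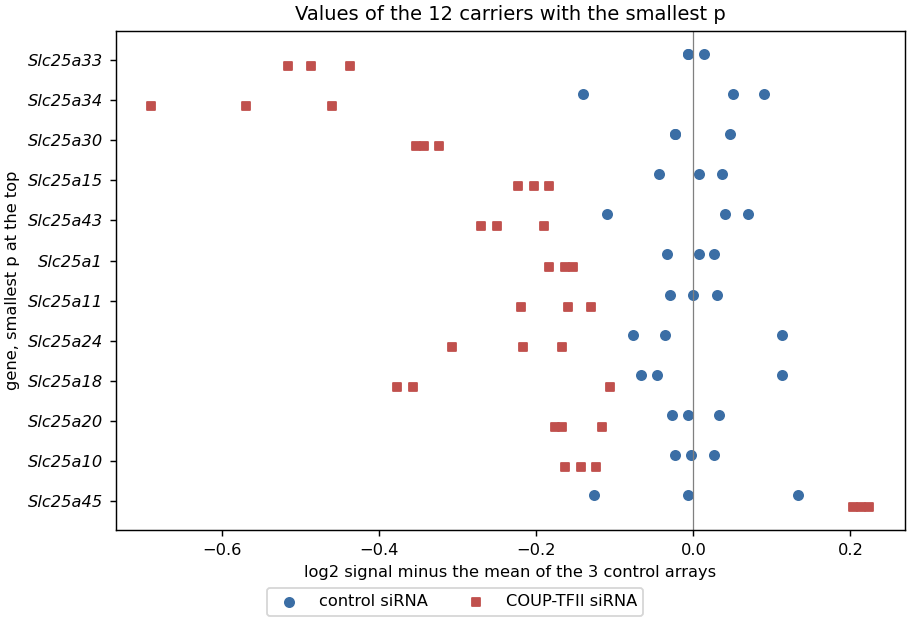
Log2 signal of each array minus the mean of the 3 control arrays (horizontal axis) for the 12 members with the smallest p, with circles for control siRNA and squares for COUP-TFII siRNA arrays. For 11 of them all squares lie to the left of all circles, and for Slc25a45 all lie to the right.

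Of 4 carriers of di- and tricarboxylates, 0 were called. All 4 differences lay below 0, as 43.7% of all genes and 52.5% of bright genes did, with a median of -0.154. Slc25a1, the citrate carrier that supplies cytosolic acetyl-CoA, read 11.12, 11.18 and 11.16 in control arrays and 11, 10.99 and 10.97 in COUP-TFII siRNA arrays. Its groups did not overlap, and the difference was -0.16 (SE 0.04, adjusted p = 0.0809). Slc25a11, the oxoglutarate-malate carrier of the malate-aspartate shuttle, read 10.92, 10.89 and 10.95 against 10.76, 10.70 and 10.79, a difference of -0.17 (SE 0.05, adjusted p = 0.0865). Slc25a10, which exchanges dicarboxylates such as malate and succinate for phosphate, read 11.23, 11.21 and 11.26 against 11.11, 11.09 and 11.07, a difference of -0.15 (SE 0.04, adjusted p = 0.109). All 3 genes were at 88.9% to 90.4% of control, and none had overlapping groups. Among all bright genes 21.1% were likewise separate and lower. Slc25a21, the oxodicarboxylate carrier, was dim (mean 5.17) and differed by -0.07 with a wide 95% interval of -0.29 to 0.15, and by 0.02 without control siRNA replicate 3. Slc25a1 and Slc25a11 were each called after median centring (adjusted p = 0.0444 and 0.0456). When the prior variance followed signal intensity, adjusted p was 0.0178 for Slc25a1, 0.0243 for Slc25a11 and 0.0275 for Slc25a10. With 1 array left out it was 0.106 to 0.213, 0.121 to 0.262 and 0.154 to 0.26.

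Slc25a20, the carnitine-acylcarnitine carrier that admits fatty acyl groups for oxidation, read 11.32, 11.38 and 11.34 in control arrays and 11.23, 11.17 and 11.18 in COUP-TFII siRNA arrays. The groups were separate, and the difference was -0.15 (SE 0.05, adjusted p = 0.105). Its partner enzyme Cpt2, which reforms acyl-CoA in the matrix, fell by 0.34 (SE 0.05, adjusted p = 0.0102), and Cpt1a, the enzyme that makes acylcarnitine at the outer membrane, differed by -0.06 (adjusted p = 0.541).

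Adenine nucleotide and phosphate carriers held 0 calls among 8. Slc25a4 and Slc25a5, ADP/ATP carriers that export ATP for the cell, showed small differences. Slc25a5 read 12.69, 12.72 and 12.69 in control arrays and 12.69, 12.70 and 12.72 in COUP-TFII siRNA arrays, with a 95% interval of the difference from -0.10 to 0.10. Slc25a4 differed by -0.05 (95% interval -0.17 to 0.07) and Slc25a3, the phosphate carrier that feeds ATP synthase, by -0.02 (95% interval -0.15 to 0.10). Slc25a31, an ADP/ATP carrier known from male germ cells, read 11.11, 11.29 and 11.17 against 10.98, 11.13 and 11.11. Its groups overlapped, and it differed by -0.12 (SE 0.06, adjusted p = 0.358). Among 6 germ cell markers, Ddx4 read above the table's median, at 8.41, and fell by 0.32 (adjusted p = 0.0217). Without any single array Ddx4 had an adjusted p of up to 0.0916, and missed the threshold without control siRNA replicates 2 or 3 and without COUP-TFII siRNA replicates 1 or 2. A replicate block gave 0.0521. The arrays held a cultured cell line and not testis tissue, and the origin of the Slc25a31 and Ddx4 signals was not tested. The other 5, Dazl, Sycp3, Prm1, Tnp1 and Acrv1, had control means of 4.95, 4.91, 7.14, 6.31 and 5.52.

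Slc25a24, a calcium-regulated ATP-Mg/phosphate carrier, read 11.86, 12.05 and 11.90 in control arrays and 11.63, 11.77 and 11.72 in COUP-TFII siRNA arrays. The groups were separate, with a difference of -0.23 (SE 0.06, adjusted p = 0.0899). Its relatives Slc25a23 and Slc25a25 differed by 0.02 and 0.01, and Slc25a41 (mean signal below the table's median) by -0.13 (adjusted p = 0.327). Slc25a24 lies beside Slc25a54 and Slc25a41 beside Slc25a23 in the gene order of the reference. Slc25a54 was dim, at 5.41, 5.41 and 5.40 against 5.22, 5.32 and 5.40, with the highest COUP-TFII siRNA array level with the lowest control array to 2 decimals. It differed by -0.10 (adjusted p = 0.397).

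Relatives of the uncoupling proteins differed among themselves. Slc25a30 fell, whereas Slc25a14 and Slc25a27, both known from brain, differed by 0.04 (95% interval -0.13 to 0.21) and 0.16 (95% interval -0.02 to 0.35). The probe sets of Slc25a14 and Slc25a27 read below the table's median. The uncoupling proteins themselves, named Ucp1, Ucp2 and Ucp3, and the carrier-like outer membrane proteins Mtch1 and Mtch2 form a list of 5 family members with other symbols. Of these, 0 were called, and their differences ran from -0.09 for Ucp2 to 0.08 for Ucp1.

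Amino acid carriers had Slc25a15 as the 1 call among 9. Slc25a18, a glutamate carrier, read 7.97, 7.95 and 8.13 in control arrays and 7.64, 7.66 and 7.91 in COUP-TFII siRNA arrays. The highest COUP-TFII siRNA array came close to the lowest control array, and the difference was -0.28 (SE 0.08, adjusted p = 0.0985). It passed without COUP-TFII siRNA replicate 3 (adjusted p = 0.0483) and with the replicate number as a block (0.0480). Without any other single array its adjusted p was 0.129 to 0.289. Its close relative Slc25a22 differed by -0.01 (95% interval -0.11 to 0.09). The aspartate-glutamate carriers of the malate-aspartate shuttle, Slc25a12 and Slc25a13, differed by 0.05 (95% interval -0.05 to 0.15) and 0.00 (95% interval -0.11 to 0.11). Slc25a38, a glycine carrier that serves heme synthesis, differed by 0.11 (SE 0.06) and the branched-chain amino acid carrier Slc25a44 by 0.10 (SE 0.05), with adjusted p of 0.326 and 0.356. Slc25a2, a further ornithine carrier, was dim and differed by 0.15 (95% interval -0.03 to 0.34).

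Among 9 carriers of cofactors and nucleotides, Slc25a33 was the 1 call. Slc25a16, tied to coenzyme A, read 10.30, 10.28 and 10.36 in control arrays and 10.39, 10.45 and 10.53 in COUP-TFII siRNA arrays. All COUP-TFII siRNA arrays were higher, but the difference of 0.14 (SE 0.05) was not called (adjusted p = 0.174). Slc25a36, the other pyrimidine nucleotide carrier, differed by 0.07 (95% interval -0.04 to 0.18), and Slc25a51, which imports NAD, by 0.04 (95% interval -0.07 to 0.16). The remaining 5, among them Slc25a32 for folate and Slc25a26 for S-adenosylmethionine, differed by -0.04 to 0.03.

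Carriers of iron and glutathione had 0 calls among 3. Slc25a39 and Slc25a40, which bring glutathione into mitochondria, went opposite ways without being called. Slc25a39 read 12.07, 12.08 and 12.09 against 12.14, 12.13 and 12.16, a difference of 0.06 (SE 0.04, adjusted p = 0.466). Slc25a40 read 9.99, 9.92 and 9.96 against 9.78, 9.83 and 9.91, a difference of -0.11 (SE 0.05, adjusted p = 0.264). Neither gene's groups overlapped. The iron importer Slc25a28 differed by -0.07 (SE 0.05), and the probe set of its relative Slc25a37 that is shared with Gm21464 by -0.08 (SE 0.05, adjusted p = 0.394).

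Of 9 outer membrane carriers or carriers of unassigned cargo, Slc25a34 was the 1 call. Slc25a43 came next, at 8.88, 8.85 and 8.70 in control arrays and 8.54, 8.62 and 8.56 in COUP-TFII siRNA arrays. The groups were separate, with a difference of -0.24 (SE 0.06, adjusted p = 0.0601). Leaving out control siRNA replicate 3 brought Slc25a43 past the threshold (adjusted p = 0.0488), as did median centring (0.0342). Without any other single array its adjusted p was 0.13 to 0.179. Its neighbour on chromosome X is Slc25a5, which differed by 0.00. Slc25a45 had the largest positive difference of the members, at 9.25, 9.13 and 9.39 in control arrays and 9.48, 9.46 and 9.47 in COUP-TFII siRNA arrays. Its 3 COUP-TFII siRNA arrays were close together and just above the highest control array, and the difference of 0.22 (SE 0.07) was not called (adjusted p = 0.11). Slc25a46, an outer membrane protein of mitochondrial shape and lipid transfer, read 10.27, 10.35 and 10.41 against 10.42, 10.51 and 10.47, a difference of 0.12 (SE 0.05, adjusted p = 0.255). Slc25a35, the relative of Slc25a34, differed by -0.07 (95% interval -0.19 to 0.04) and Slc25a48, a dim probe set, by 0.09 (95% interval -0.10 to 0.28). The 14 members outside the rule for naming, Slc25a5-ps among them, differed by -0.04 to 0.07, with adjusted p of at least 0.498.

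Related carriers were also set against each other within each array, in 8 pairs chosen by known relation after their values had been seen, so that these are descriptions. Slc25a33 minus Slc25a36 was -1.0, -0.88 and -0.94 in control arrays and -1.43, -1.57 and -1.47 in COUP-TFII siRNA arrays, a shift of -0.55. The shift of Slc25a34 against Slc25a35 was -0.50, of Slc25a30 against Slc25a14 -0.38 and of Slc25a15 against Slc25a2 -0.35, in each case without overlap between the groups. Slc25a33, Slc25a34, Slc25a30 and Slc25a15 are the called members, and their own groups were already separate. Slc25a14 and Slc25a2 were dim, and Slc25a2 itself differed by 0.15 (adjusted p = 0.362). Slc25a18 against Slc25a22 shifted by -0.27 and Slc25a39 against Slc25a40 by 0.18, also without overlap. The groups of Slc25a18, Slc25a39 and Slc25a40 were likewise already separate for the single genes. For Slc25a12 against Slc25a13 (0.05) and Slc25a4 against Slc25a5 (-0.05) the groups overlapped. How often other gene pairs lack overlap was not computed. Among single bright genes 21.1% were separate and lower and 17.1% separate and higher. A shift within an array shows unequal change of the probe sets and not which of them changed. With 3 arrays per group an exact permutation test cannot give a two-sided p under 0.1.

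**Figure D3:**
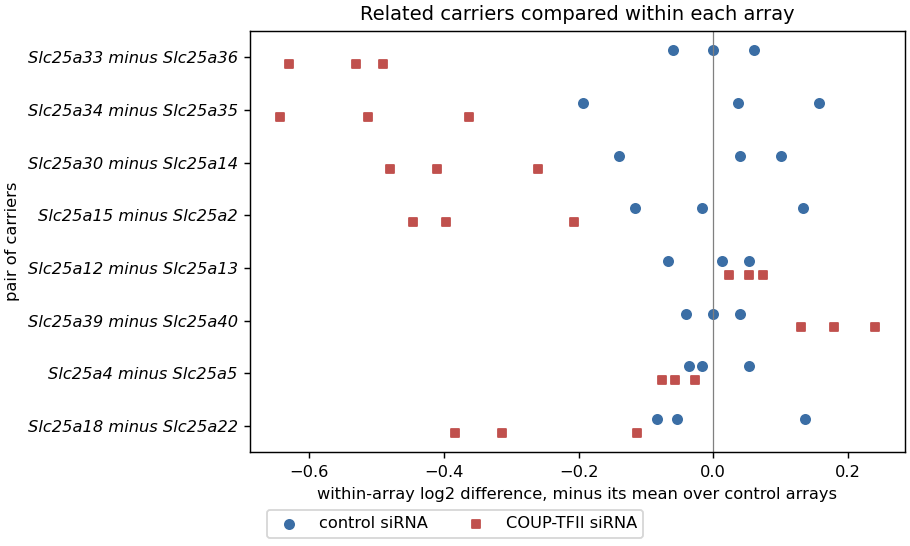
Within-array log2 difference of 8 pairs of related carriers, minus its mean over the control arrays (horizontal axis), with 1 point per array, circles for control siRNA and squares for COUP-TFII siRNA. In 6 pairs the groups do not overlap, and the pairs Slc25a12 with Slc25a13 and Slc25a4 with Slc25a5 overlap. How often other gene pairs lack overlap was not computed.

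Carriers reach the inner membrane through the outer membrane TOM pore, small chaperones of the intermembrane space and the TIM22 insertase. Of 20 genes listed as import machinery, 2 fell and 0 rose, 17 lay below 0, and the median was -0.101. The list also holds Timm17a, Timm23, Timm44 and Timm50 of the separate TIM23 route, so these figures are not for the carrier route alone. Of the 20, 19 were bright, and of all bright genes 5.57% fell, 2.77% rose and 52.5% lay below 0, with a median of -0.006. The same shares are the background for the other lists, which are also mostly bright, with 32 of 38 partner enzymes, 20 of 21 other transporters and 19 of 22 regulators. Tomm20, a receptor of the TOM complex, read 11.55, 11.86 and 11.65 in control arrays and 11.20, 11.32 and 11.34 in COUP-TFII siRNA arrays, and fell by 0.40 (SE 0.08, adjusted p = 0.0288). Timm10b, a small chaperone of the TIM22 complex, fell by 0.22 (SE 0.05, adjusted p = 0.0341). For neither gene did the groups overlap. Neither call held throughout: Tomm20 missed the threshold without control siRNA replicate 3 and without any one of the COUP-TFII siRNA arrays (adjusted p = 0.0739 to 0.104). Timm10b missed it without each array in turn (0.0733 to 0.11) and with the replicate number as a block (0.0631). Tomm6, a small subunit of the pore, differed by -0.21 (SE 0.05, adjusted p = 0.0606). Tomm70a, a receptor for carriers, differed by -0.06 (adjusted p = 0.65) and the insertase subunit Timm22 by -0.04 (0.816). Timm9 and Timm10, chaperones of the intermembrane space, each differed by -0.11 (0.369 and 0.378).

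Among 38 enzymes that work with the carriers, 5 fell and 0 rose, and the median was -0.054. Pcx, or pyruvate carboxylase, fell by 0.85 (SE 0.08), and Ppif, or cyclophilin D, which binds the permeability pore, by 0.44 (SE 0.06, adjusted p = 0.00556). Ppif read 10.36, 10.36 and 10.44 in control arrays and 9.98, 9.86 and 10 in COUP-TFII siRNA arrays. Otc, the enzyme that uses the ornithine which Slc25a15 imports, fell by 0.33 (SE 0.05, adjusted p = 0.00798) on a dim probe set, from 6.23, 6.18 and 6.17 to 5.89, 5.88 and 5.83. Nfs1, the desulfurase of iron-sulfur cluster assembly, fell by 0.27 (SE 0.05, adjusted p = 0.0238), and its adjusted p was up to 0.100 when single arrays were left out, passing only without control siRNA replicate 1. A block for the replicate number gave 0.0565. Enzymes of the malate-aspartate shuttle were not called, with Mdh1 at -0.19 (adjusted p = 0.0713), Mdh2 at -0.14 (0.135), Got1 at 0.24 (0.0813) and Got2 at 0.03 (0.835).

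Of 21 other mitochondrial transporters, 1 rose and 0 fell. Sfxn5, a member of the sideroflexin family, read 8.31, 8.30 and 8.36 in control arrays and 8.64, 8.56 and 8.64 in COUP-TFII siRNA arrays, and rose by 0.29 (SE 0.05, adjusted p = 0.0146). Without COUP-TFII siRNA replicates 1 or 3 its adjusted p was 0.0664 and 0.0578. Tspo, an outer membrane protein long studied in steroid synthesis, differed by -0.21 (SE 0.06, adjusted p = 0.0976), and Sfxn3 by 0.21 (SE 0.06, adjusted p = 0.108). Of 22 regulators of mitochondrial biogenesis, 2 fell and 0 rose, Myc by 0.40 (SE 0.05, adjusted p = 0.0058) and the AMP-activated kinase subunit Prkaa2 by 0.34 (SE 0.06, adjusted p = 0.0212). Prkaa2 missed the threshold without control siRNA replicates 2 or 3 and without COUP-TFII siRNA replicates 1 or 2 (0.0502 to 0.0916). The transcription factors Nrf1, Gabpa and Tfam differed by -0.01, 0.02 and -0.02, and Pparg by 0.15 (adjusted p = 0.206).

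**Figure D4:**
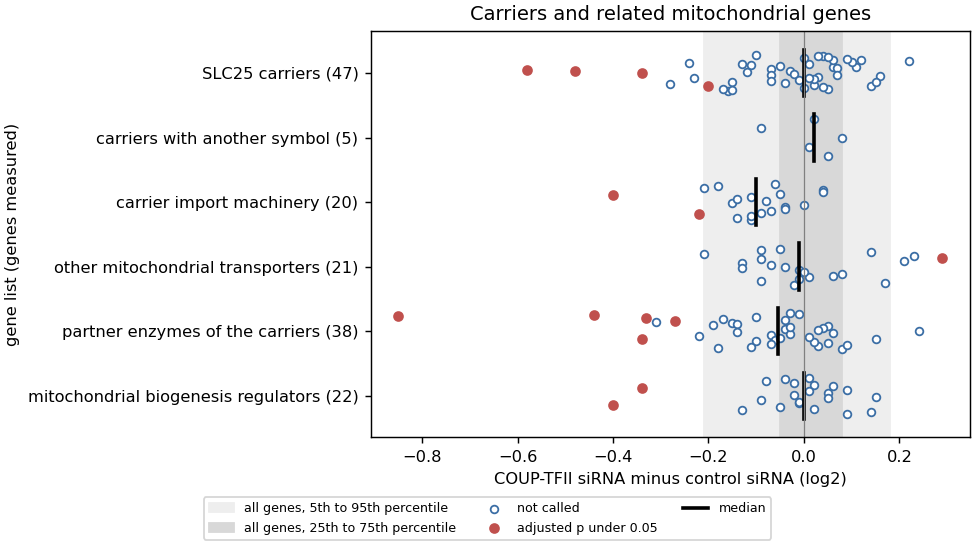
Difference between COUP-TFII siRNA and control siRNA (log2, horizontal axis) for the 47 members and for 5 related gene lists, with filled points for calls, a bar at each list's median and shading for the spread of all genes. The median bar of the import machinery lies at -0.101 and that of the members at 0.001.

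The calls among the members differed in how far they depended on single arrays and settings. Slc25a33, Slc25a34 and Slc25a30 kept an adjusted p under 0.05 under all 13 alternatives each, and Slc25a15 under 5 of 13. Slc25a43 passed under 4, Slc25a18 under 4, Slc25a1 and Slc25a11 under 3 each, Slc25a24, Slc25a20 and Slc25a10 under 2 each and Slc25a45 under 1.

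**Figure D5:**
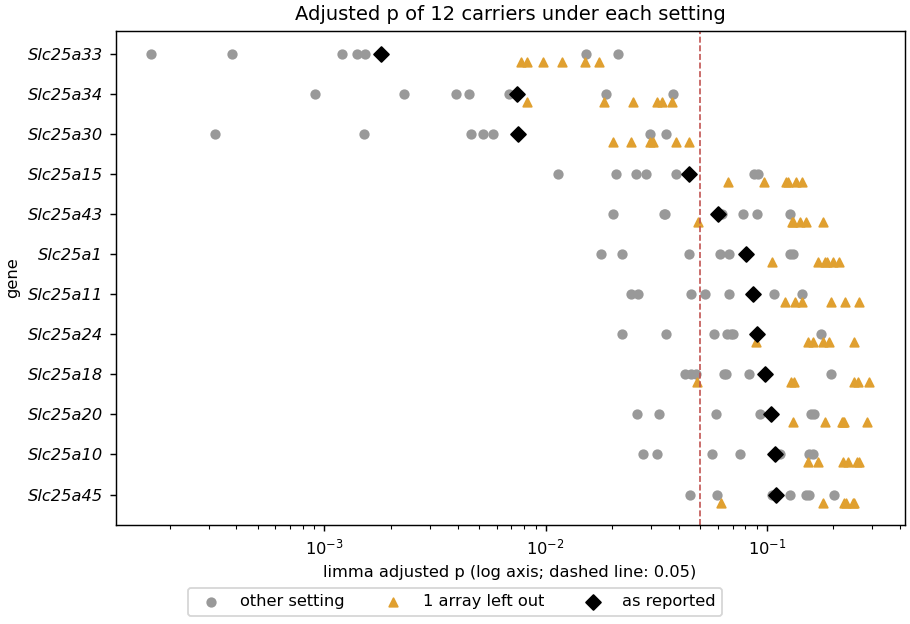
Adjusted p of limma (log axis, dashed line at 0.05) for the 12 members with the smallest p, as reported (diamonds), with 1 array left out (triangles) and under other settings (circles). All points of Slc25a33, Slc25a34 and Slc25a30 lie left of the line, and the triangles of Slc25a15 lie right of it.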

How the data were processed

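Per the labels' protocols, total RNA was extracted with Trizol and biotinylated cDNA was hybridised by an Affymetrix protocol. The submitters' processing notes name Partek 7.0, and how background and normalization were handled is not given in the sources used here. The authors deposited normalized log2 values for 35556 probe sets, between 3.15 and 14.3, of which 26836 have a symbol, 25454 exactly 1. That the scale is log2 was inferred from the range of values. The authors' deposited tables also give a linear ratio, a signed fold (a score) and a p-value per probe set, used here only where named.

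Each probe set with a symbol was fitted with limma 3.58.1 in R 4.3.3 (lmFit, eBayes), group as the only term, with Benjamini-Hochberg adjustment over all of them. The number of arrays limits the precision. Insl3, Rhox5 and Cpt1b have no probe set of that single symbol, and Timm29 was found under its older name. The rule for naming took called members, those with the next smallest p until 25 were named, 13 carriers of energy, iron and glutathione supply whatever their p, the 5 brightest and 5 dimmest members, and the called genes and 3 smallest p of each related list. Other genes named as relatives, neighbours, regulators, import genes or shuttle enzymes were chosen after their values were seen, as were the alternatives for related genes and Ddx4. Motif searches and pairs were added after the values had been seen. The members and lists were chosen with earlier results of these data known.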

Additional observations from a re-analysis of the deposited data

How the results depend on the processing

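The 13 alternatives were median centring, quantile normalization, a replicate block, brighter probe sets, all probe sets, an intensity trend, array weights and leaving out each of the 6 arrays. The mean of a gene's probe sets changed nothing, since every member has 1. The count of lower members was 7 after median centring, 11 among brighter probe sets, 10 with an intensity trend and 9 at an adjusted p under 0.1. The shares of all probe sets tested that were lower there were 4.41%, 10.8%, 4.91% and 4.96%, beside 2.92% in the reported fit, and the fit to brighter probe sets held 38 members. The count was 3 at an adjusted p under 0.01 and 3 to 4 with 1 array left out. The count of higher members was 1 among brighter probe sets and 0 under all other settings, with 3 members above 0 at an unadjusted p under 0.05. The median difference was -0.029 after centring and -0.019 to 0.014 with 1 array left out. The whole table gave 711 calls with the replicate block, 2375 among brighter probe sets, 436 over all probe sets, 2132 with an intensity trend and 306 to 737 with 1 array left out. The related lists together gave 10 calls, 21 among brighter probe sets, 6 over all probe sets, 19 with an intensity trend and 5 to 10 with 1 array left out. The cause of these shifts was not tested, except that fewer arrays or fewer and brighter probe sets entered where the setting says so. Differences near 0 changed sign without a call. Slc25a13 (main value 0.00) was -0.03 after centring, -0.0020 after quantile normalization, -0.02 with array weights and between -0.03 and 0.04 with 1 array left out, and Slc25a5 was -0.03 after centring and -0.0049 to 0.01 with 1 array left out. With 1 array left out, Slc25a3 ran from -0.06 to 0.01, Slc25a14 from -0.01 to 0.11 and Slc25a21 from -0.18 to 0.02.

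Same-numbered replicates correlated in their deviations from the group means at 0.108, -0.048 and 0.172, so the numbers are not shown to pair the samples. With the replicate block 4 members were lower and 0 higher, as without it, and Slc25a18 took the place of Slc25a15. Not every array correlated best with its own number. Dim probe sets limit what could be seen, and 0 of 9 members below the table's median signal were called.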
